A study of Mus musculus with 6 samples.

Results

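The genes described here are the insulin-like growth factor (IGF) axis of cultured mouse cortical astrocytes: the ligands Igf1 and Igf2, the receptors Igf1r and Igf2r, and the binding proteins Igfbp2 to Igfbp7. They were taken by gene symbol from the deposited count table and make 10 of its 54532 genes, and all 10 were measured well enough to be tested. The knockout cultures came from pups that carry GFAP-Cre, a recombinase driven by the promoter of the astrocyte filament gene Gfap, together with a Neo1 gene flanked by loxP sites (NEOf/f). The control cultures came from littermates that the labels call only control; their library names carry the floxed gene without Cre. Each genotype had 3 libraries, described as biological replicates of primary astrocytes, with no pup, litter, culture or age named, so the p-values rest on a spread that may in part be technical. Because Cre depends on Gfap activity, deletion is limited to cells that have used that promoter.

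IGFs are small secreted proteins related to insulin. They act through the receptor tyrosine kinase encoded by Igf1r, which signals by way of insulin receptor substrates to the PI3K-AKT and MAP kinase pathways, whereas the protein of Igf2r binds IGF2 without a kinase, removes it, and sorts lysosomal enzymes that carry mannose 6-phosphate. IGF-binding proteins hold IGFs outside the cell; depending on the protein and on the proteases around it they keep the ligand from its receptor or deliver it. Astrocytes are known to secrete binding proteins, while much of the Igf2 RNA of the brain comes from the choroid plexus and the meninges.

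The binding proteins moved in opposite directions. Igfbp2 and Igfbp5 fell to 0.563-fold and 0.578-fold of the control level in knockout cultures, while Igfbp4 rose 2.10-fold, Igfbp7 1.48-fold, Igfbp6 1.39-fold and Igfbp3 1.18-fold. The receptors also went opposite ways, with Igf2r 1.26-fold higher and Igf1r 0.909-fold of control, the second a call that was lost without any 1 of 5 of the 6 libraries. Igf1 rose 1.19-fold and Igf2 was near the limit of detection in both genotypes. A gene is said here to have risen or fallen, or to be called, only where its adjusted p was under 0.05 in the quasi-likelihood test of edgeR, adjusted by Benjamini-Hochberg over the 18530 genes tested. By this rule 9 of the 10 genes differed, 6 higher and 3 lower, where 38.3% of all genes tested differed, 19.6% higher and 18.7% lower. Among the 9842 genes with a mean of at least 10 CPM (counts scaled to library size), a level that 9 of the 10 reach, 53.6% were called. In 9 of the 10 genes the ranges of the genotypes were separate, against 49.3% of all genes tested. The median absolute log2 fold change was 0.40 over the 10 genes and 0.27 over all genes tested. Tested against a minimum change of 1.5-fold, Igfbp2, Igfbp4 and Igfbp5 were called, 3 of 10, against 5.47% of all genes.

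Total counts ran from 60819277 to 106081115 per library. Neo1, the targeted gene, fell in every knockout library and was at 101, 106 and 105 CPM in knockout replicates 1, 2 and 3, against 189, 189 and 198 CPM in control replicates 1, 2 and 3. Its count pools all exons and the deleted exon is not named in the labels, and therefore is no measure of how complete the deletion was. Knockout replicate 2 was separated from its group by the second principal component (19.6% of the variance). Without it, 6 of the 10 IGF genes were higher and 2 lower, and Igf1r was no longer called. Astrocyte genes were well detected: Gfap was at 429, 428 and 435 CPM in knockout and 949, 966 and 924 CPM in control libraries, and Aqp4, a water channel, at 854, 914 and 868 CPM in knockout and 586, 584 and 646 CPM in control libraries. Both were picked after their values were seen.

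Markers of several cell types differed between the genotypes in the same libraries, where 38.3% of all genes tested were called, 19.6% higher and 18.7% lower. Of 19 tested astrocyte markers, the knockout had 2 higher and 14 lower, and their summed level ran from 4468 to 4491 CPM in knockout and 5358 to 5409 CPM in control libraries. Of 20 microglia and macrophage markers 1 was higher and 15 were lower, with sums of 159 to 175 CPM in knockout and 239.7 to 255 CPM in control libraries. Fibroblast and meningeal markers numbered 8 higher and 4 lower of 16, with sums of 6665 to 7294 CPM in knockout and 5028 to 5223 CPM in control libraries. Most of that sum was collagen RNA. Col1a1 was at 2976 ± 282 CPM in knockout and 1950 ± 80.7 CPM in control cultures, and Col1a2 at 1507 ± 60.8 and 864 ± 18.1 CPM (SD, n = 3 each). The fibroblast sum therefore does not give the direction of its other markers. Pericyte and smooth muscle markers numbered 4 higher and 5 lower of 12 (3218 to 3252 CPM in knockout and 4347 to 4547 CPM in control libraries), endothelial markers 4 and 1 of 12 (166 to 169.7 CPM in knockout and 113 to 119 CPM in control libraries), and choroid plexus markers 2 and 4 of 10 (79.5 to 85.2 CPM in knockout and 64.4 to 67.6 CPM in control libraries). Most of the pericyte and smooth muscle sum was Acta2, at 2685 ± 29.4 CPM in knockout and 3849.9 ± 106 CPM in control cultures (SD, n = 3 each). That sum therefore does not give the direction of the other markers. The choroid plexus sum was carried by Enpp2, also made by other cells, at 59.0 ± 2.57 CPM in knockout and 18.5 ± 0.508 CPM in control cultures (SD, n = 3 each). Without it the other 9 summed to 23.3 to 23.9 CPM in knockout and 46.5 to 48.7 CPM in control libraries. Ttr, the defining choroid plexus gene, had 1, 0 and 2 reads in knockout and 1219, 1353 and 2048 reads in control libraries. Its mean was 0.0126 CPM in knockout and 19.4 CPM in control cultures, which is most of the gap in the sum without Enpp2. Col1a1, Col1a2, Acta2, Enpp2 and Ttr were named after their values were seen. Oligodendrocyte-lineage markers numbered 2 higher and 5 lower of 11 (294 to 339 CPM in knockout and 338 to 347 CPM in control libraries) and neuronal markers 2 and 4 of 15 (433 to 447 CPM in knockout and 494 to 509 CPM in control libraries). The shares of endothelial and neuronal markers called were near the 38.3% of all genes tested. In bulk cultures, fewer cells of a type and less RNA per cell cannot be told apart, and the part of other cell types in the changes below was not tested.

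The promoter windows of Igfbp2 and Igfbp5, the pair that fell, and of Igfbp4 and Igfbp7, the largest rises, are printed with their motif matches. Each is 300 bases, from 250 before to 50 after a RefSeq start (GRCm38.p6), 5′ to 3′ on the gene's strand; Igfbp2 has 2 listed starts and the one nearest the annotated 5′ end of the gene was used. All 10 genes had a window in RefSeq. Capitals mark matches on either strand to TATAAA (the TATA box), GGGCGG (the GC box), CCAAT (the CCAAT box) and the HIF core motif written as ACGTG or GCGTG.

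Igfbp2 (chr1:72824230-72824529, plus strand): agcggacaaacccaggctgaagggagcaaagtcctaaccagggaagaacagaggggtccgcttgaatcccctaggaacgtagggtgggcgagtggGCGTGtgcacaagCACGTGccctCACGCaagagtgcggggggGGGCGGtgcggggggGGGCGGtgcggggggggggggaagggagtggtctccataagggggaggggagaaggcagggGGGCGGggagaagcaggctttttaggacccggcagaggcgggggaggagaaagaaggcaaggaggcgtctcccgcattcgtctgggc

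Igfbp5 (chr1:72874816-72875115, minus strand): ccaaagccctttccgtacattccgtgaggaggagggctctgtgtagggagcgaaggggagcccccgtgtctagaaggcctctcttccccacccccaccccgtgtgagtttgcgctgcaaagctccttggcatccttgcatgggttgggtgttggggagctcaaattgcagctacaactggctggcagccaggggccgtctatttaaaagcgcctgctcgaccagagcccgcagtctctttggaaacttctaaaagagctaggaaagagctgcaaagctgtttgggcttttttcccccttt

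Igfbp4 (chr11:99040994-99041293, plus strand): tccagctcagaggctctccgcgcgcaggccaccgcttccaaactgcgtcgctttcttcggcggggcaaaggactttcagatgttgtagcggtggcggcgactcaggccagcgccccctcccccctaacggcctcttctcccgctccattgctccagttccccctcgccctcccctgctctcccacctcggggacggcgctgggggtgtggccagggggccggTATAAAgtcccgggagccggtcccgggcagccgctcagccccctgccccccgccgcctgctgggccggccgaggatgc

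Igfbp7 (chr5:77407996-77408295, minus strand): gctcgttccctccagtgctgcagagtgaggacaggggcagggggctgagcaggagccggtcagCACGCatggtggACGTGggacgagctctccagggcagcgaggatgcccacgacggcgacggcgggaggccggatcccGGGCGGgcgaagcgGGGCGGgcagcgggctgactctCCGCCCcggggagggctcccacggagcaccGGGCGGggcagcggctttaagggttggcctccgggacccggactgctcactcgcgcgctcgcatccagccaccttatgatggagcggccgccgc

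The Igfbp2 window was 67.0% G or C with 18 CpG and held 3 matches to GGGCGG, 2 to ACGTG and 2 to GCGTG; both ACGTG matches lie in 1 palindrome, read on either strand. The Igfbp5 window was 56.3% G or C with 10 CpG and held no match to any of the 5 motifs. The Igfbp4 window (71.3% G or C, 27 CpG) held 1 match to TATAAA, at 28 bases before the start, and none to the others. The Igfbp7 window (73.3% G or C, 33 CpG) held 4 matches to GGGCGG, 1 to ACGTG and 1 to GCGTG. So neither the pair that fell nor the pair that rose shared a motif within the pair. Over all 32851 RefSeq windows of this length, 13.6% held TATAAA, 35.7% GGGCGG, 37.4% CCAAT, 19.6% ACGTG and 32.4% GCGTG, and the median G or C content was 52.7%. These matches describe the letters of the windows and say nothing of binding.

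Igf1 (ENSMUSG00000020053, GRCm38 chromosome 10, 87858265 to 87937042, plus strand) encodes the IGF ligand that stimulates growth through its receptor kinase. It was at 26.6, 27.8 and 25.5 CPM in knockout replicates 1, 2 and 3, against 21.9, 23.5 and 21.7 CPM in control replicates 1, 2 and 3. Every knockout library lay above every control library, by a small margin. Against control this was a log2 fold change of 0.25 (SE 0.07, edgeR adjusted p = 0.009). Igf1 is a product of microglia as well as of astrocytes and neurons, and of the 20 microglia and macrophage markers 15 fell, 1 rose and 4 were not called. Of all genes tested, 18.7% fell and 19.6% rose. Csf1r, a receptor of microglia, fell and was at 8.36, 8.61 and 8.45 CPM in knockout and 16.9, 17.1 and 14.3 CPM in control libraries. Tmem119, also a microglial marker, was the one that rose, at 7.09, 6.60 and 6.58 CPM in knockout and 4.97, 4.13 and 4.88 CPM in control libraries. Both were named after their values were seen, and the part of microglia in the Igf1 level was not tested.

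Igf2 (ENSMUSG00000048583, GRCm38 chromosome 7, 142650766 to 142666816, minus strand), the fetal growth ligand, had only 27, 30 and 37 reads in the knockout libraries and 31, 18 and 58 reads in the control libraries. These are 0.283, 0.410 and 0.506 CPM in knockout and 0.498, 0.261 and 0.536 CPM in control libraries, and the groups overlapped. The log2 fold change was −0.12 (SE 0.53, edgeR adjusted p = 0.89). Folds within 2 standard errors either side run from 0.442 to 1.91, so differences within this span are not excluded. Whether a larger one would have been called at this depth was not tested. Of the annotated exon bases of Igf2, 62.8% also belong to Gm49394, a gene on the same strand that has no reads in any library. How reads that fall in both genes were treated is not known from the labels, so the Igf2 level may be too low. H19, the imprinted noncoding RNA gene 72622 bases away, was at 49.8, 50.02 and 50.3 CPM in knockout and 48.6, 47.7 and 48.1 CPM in control libraries and did not pass the test (adjusted p = 0.46, edgeR).

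Igf1r (ENSMUSG00000005533, GRCm38 chromosome 7, 67952827 to 68233668, plus strand), the signalling receptor, was at 106, 105 and 109.5 CPM in knockout replicates 1, 2 and 3, against 116, 111 and 126 CPM in control replicates 1, 2 and 3. The groups did not overlap, but the gap was small: the highest knockout library was 109.5 CPM and the lowest control library 111 CPM. The fit gave a log2 fold change of −0.14 (SE 0.05, edgeR adjusted p = 0.047), just past the threshold. The adjusted p was 0.16 without control replicate 3, the highest library, and 0.11, 0.069, 0.07 and 0.094 without knockout replicates 1, 2 and 3 and control replicate 1, and 0.055 without the robust option of edgeR.

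Igf2r (ENSMUSG00000023830, GRCm38 chromosome 17, 12682406 to 12769664, minus strand), the receptor that clears IGF2 and carries mannose 6-phosphate proteins, was at 189, 189.9 and 191 CPM in knockout replicates 1, 2 and 3, against 143, 141 and 166 CPM in control replicates 1, 2 and 3. The knockout libraries were nearly identical to each other and lay above all control libraries, of which replicate 3 was the highest. In the fit this came to a log2 fold change of 0.34 (SE 0.06, edgeR adjusted p = 0.00011). Airn, an antisense transcript that overlaps the Igf2r gene but shares none of its exon bases, was at 1.39, 1.80 and 1.11 CPM in knockout and 1.59, 1.77 and 1.20 CPM in control libraries and did not pass the test (adjusted p = 0.86, edgeR). Per kilobase of exon, the ratio of Igf1r to Igf2r was 0.313 ± 0.00553 in knockout and 0.435 ± 0.0154 in control cultures (SD, n = 3 each), so Igf2r RNA was the more abundant of the receptors in every library.

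**Figure D1:**
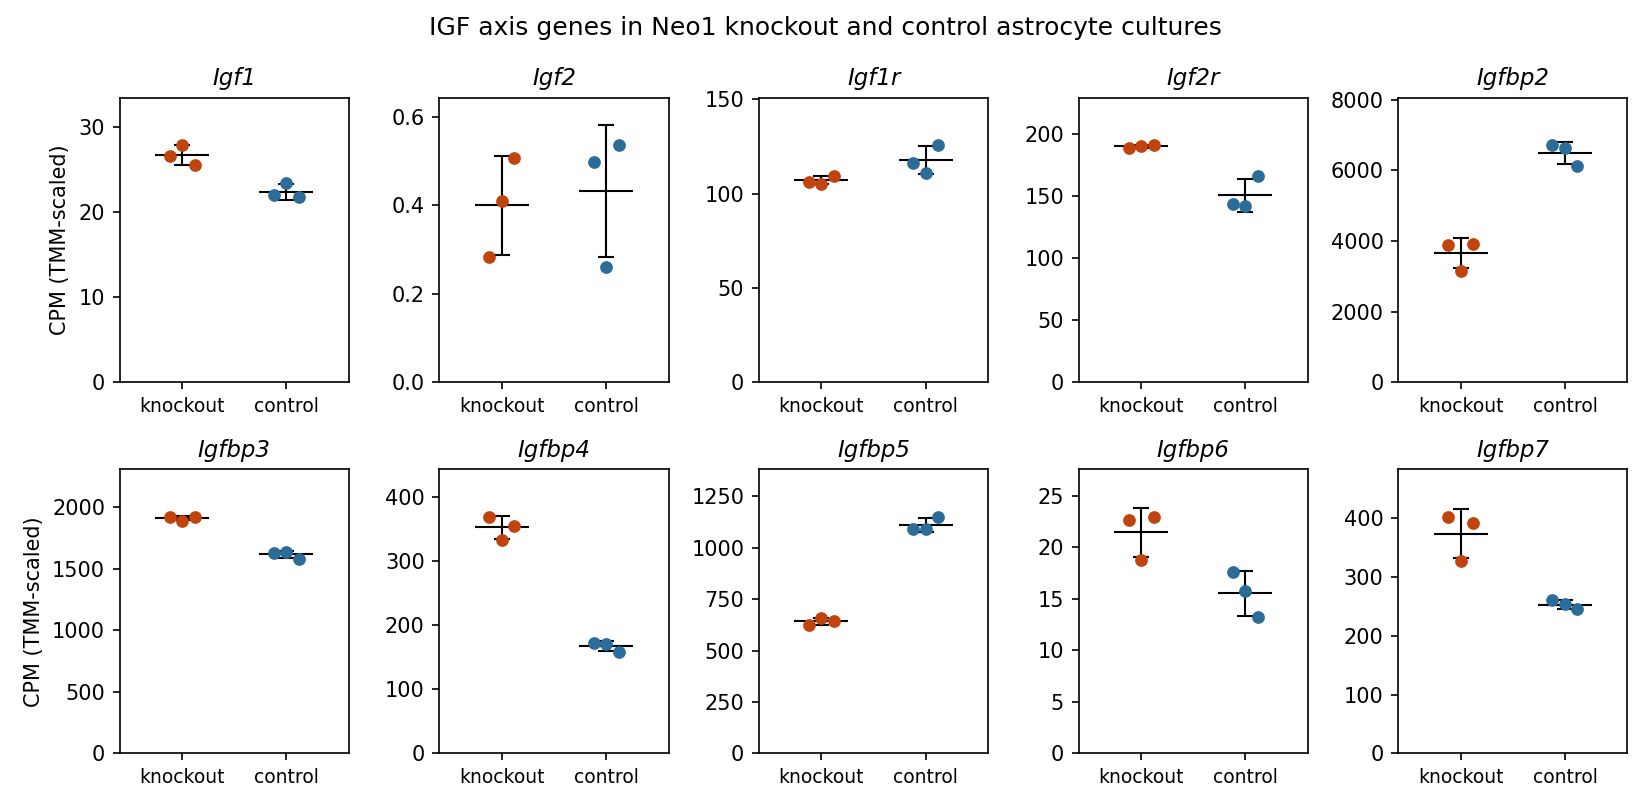
CPM of the 10 IGF axis genes, scaled by TMM, in the 3 knockout (left, orange) and 3 control (right, blue) libraries; points are libraries, lines the mean and bars the SD, and each vertical axis starts at 0. The groups are separate in every panel but that of Igf2; knockout replicate 2 is the lowest knockout library for Igfbp2, Igfbp3, Igfbp4, Igfbp6 and Igfbp7.

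Igfbp2 (ENSMUSG00000039323, GRCm38 chromosome 1, 72824503 to 72852474, plus strand) encodes the binding protein most associated with astrocytes and the developing brain. It was at 3879.7, 3162 and 3923 CPM in knockout replicates 1, 2 and 3, against 6709, 6638 and 6124 CPM in control replicates 1, 2 and 3. All knockout libraries lay far below all control libraries, and knockout replicate 2 was the lowest. The knockout over control estimate was a log2 fold change of −0.83 (SE 0.08, edgeR adjusted p = 5.5e-05), and −0.73 without knockout replicate 2. By mean CPM per kilobase Igfbp2 ranked 6 of the 18530 genes tested in knockout cultures and 2 in control cultures, so it stayed among the most abundant RNAs.

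Igfbp5 (ENSMUSG00000026185, GRCm38 chromosome 1, 72857932 to 72874884, minus strand), a binding protein that attaches to extracellular matrix, was at 623, 659 and 645 CPM in knockout replicates 1, 2 and 3, against 1090.0, 1093 and 1151 CPM in control replicates 1, 2 and 3. The libraries of each genotype lay close together and the genotypes far apart. Against control this was a log2 fold change of −0.79 (SE 0.04, edgeR adjusted p = 5.1e-11). Igfbp2 and Igfbp5 are neighbours on chromosome 1, with their 3′ ends facing each other and 5457 bases between the genes. They fell to a like extent: the ratio of Igfbp2 to Igfbp5 per kilobase was 18.5 ± 2.55 in knockout and 19.02 ± 1.495 in control cultures (SD, n = 3 each), a difference smaller than the spread between replicates.

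Igfbp4 (ENSMUSG00000017493, GRCm38 chromosome 11, 99041244 to 99054392, plus strand), a binding protein known as an inhibitor of IGF action that is destroyed by the protease of Pappa, was at 369, 333 and 354 CPM in knockout replicates 1, 2 and 3, against 173, 171 and 159 CPM in control replicates 1, 2 and 3. The lowest knockout library, replicate 2, lay well above the highest control library, replicate 1. The fit gave a log2 fold change of 1.07 (SE 0.05, edgeR adjusted p = 1.2e-11), the largest of the 10 genes, and 8.37% of all genes tested had a larger fold in either direction. Its rank by CPM per kilobase was 572 in knockout and 1336 in control cultures.

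Igfbp7 (ENSMUSG00000036256, GRCm38 chromosome 5, 77349240 to 77408041, minus strand), a related secreted protein with weak IGF binding that is common around blood vessels, was at 403, 327 and 393 CPM in knockout replicates 1, 2 and 3, against 261, 253 and 245 CPM in control replicates 1, 2 and 3. Knockout replicate 2 was the lowest of its group and still above every control library. In the fit this came to a log2 fold change of 0.56 (SE 0.06, edgeR adjusted p = 5.9e-06). Igfbp7 shares 85 exon bases with Polr2b on the opposite strand, 7.03% of its exon length, and whether the counting used strand is not known from the labels; Polr2b was at 87.8, 91.8 and 85.8 CPM in knockout and 81.6, 82.4 and 81.5 CPM in control libraries (adjusted p = 0.084, edgeR).

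Igfbp6 (ENSMUSG00000023046, GRCm38 chromosome 15, 102144362 to 102149511, plus strand), which prefers IGF2 over IGF1, was the least abundant binding protein at 22.7, 18.7 and 23.0 CPM in knockout replicates 1, 2 and 3, against 17.6, 15.7 and 13.3 CPM in control replicates 1, 2 and 3. The groups were separate but near, with knockout replicate 2 just above control replicate 1. The knockout over control estimate was a log2 fold change of 0.47 (SE 0.11, edgeR adjusted p = 0.0018). Igfbp3 (ENSMUSG00000020427, GRCm38 chromosome 11, 7206086 to 7213923, minus strand), the main IGF carrier of blood, was abundant and moved little, at 1922, 1889.8 and 1918 CPM in knockout replicates 1, 2 and 3, against 1627, 1637 and 1581 CPM in control replicates 1, 2 and 3. Its replicates were the tightest of the binding proteins, and the small difference passed the test, with a log2 fold change of 0.24 (SE 0.04, edgeR adjusted p = 3.8e-05). Igfbp1, its neighbour 3539 bases away and a liver product, had 0 reads in all 6 libraries.

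Markers of fibroblasts, endothelium and mural cells were mixed in direction beside the binding proteins. Their counts stand beside 19.6% of all genes tested higher and 18.7% lower. Of 16 tested fibroblast and meningeal markers 8 rose and 4 fell. Col1a2, a collagen gene of fibroblasts, was at 1507 ± 60.8 CPM in knockout and 864 ± 18.1 CPM in control cultures (log2 fold change 0.80), whereas Thy1, a surface protein of fibroblasts and neurons, was at 196 ± 1.05 CPM in knockout and 377 ± 11.5 CPM in control cultures (−0.94) and Ptgds, a prostaglandin synthase of the meninges, at 7.82 ± 0.566 CPM in knockout and 18.1 ± 1.92 CPM in control cultures (−1.21; SD, n = 3 each). Of 12 endothelial markers 4 rose and 1 fell. Cdh5, the endothelial cadherin, was at 53.4 ± 1.93 CPM in knockout and 26.8 ± 0.439 CPM in control cultures (log2 fold change 0.99) and Flt1, a VEGF receptor, at 68.1 ± 1.37 CPM in knockout and 43.5 ± 2.87 CPM in control cultures (0.65), whereas Slco1a4, a transporter of brain endothelium, was at 3.70 ± 0.478 CPM in knockout and 13.2 ± 0.845 CPM in control cultures (−1.84; SD, n = 3 each). Cldn5, the endothelial claudin, was near 0, with 8, 0 and 4 reads in knockout and 2, 14 and 3 reads in control libraries. Of 12 pericyte and smooth muscle markers 4 rose and 5 fell. Pdgfrb, a pericyte receptor, was at 115 ± 3.56 CPM in knockout and 80.3 ± 3.17 CPM in control cultures (log2 fold change 0.52) and Acta2, smooth muscle actin, at 2685 ± 29.4 CPM in knockout and 3849.9 ± 106 CPM in control cultures (−0.52; SD, n = 3 each). Higd1b, a pericyte marker, had 0, 4 and 0 reads in knockout and 0, 0 and 1 reads in control libraries. These 10 genes were picked after their values were seen. The part of these cells in the binding protein levels was not tested.

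**Figure D2:**
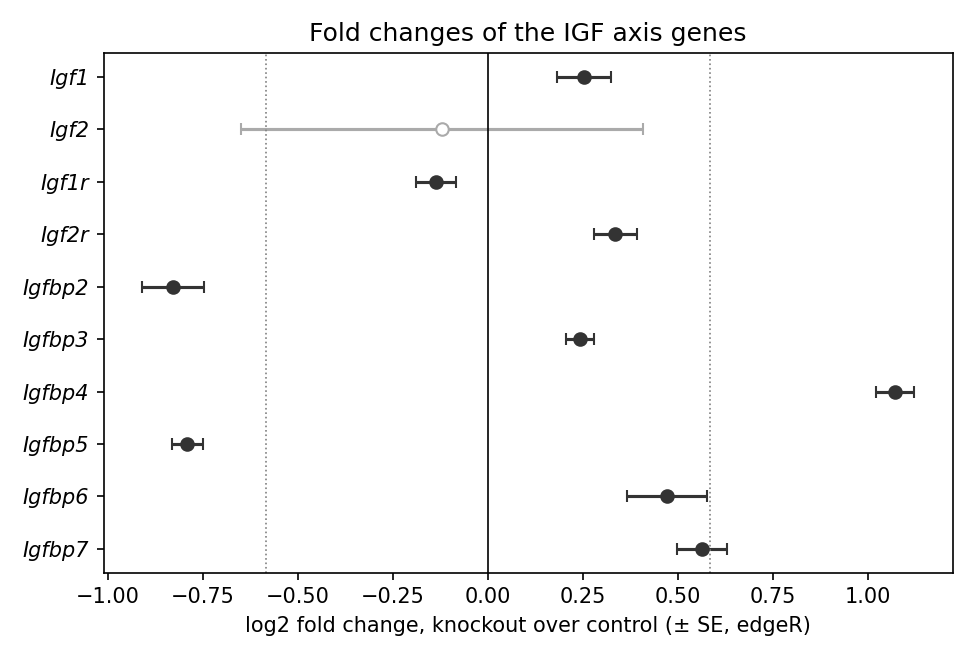
Log2 fold change of each gene, knockout over control, from the edgeR fit, with bars of 1 SE; filled points passed the adjusted p threshold of 0.05, the open point (Igf2) did not, and dotted lines mark a 1.5-fold change. Igfbp2 (−0.83) and Igfbp5 (−0.79) lie beyond the lower line and Igfbp4 (1.07) beyond the upper one.

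Since the genes differ in length, the make-up of the binding protein RNA was compared as CPM per kilobase of exon, as a description. Summed over the 6 binding proteins, the level was 3255, 2788 and 3269 CPM per kilobase in knockout and 4604, 4562 and 4263 CPM per kilobase in control libraries. The sum was lower in every knockout library than in every control library, with knockout replicate 2 the lowest. Its means were 3104 ± 274 in knockout and 4476 ± 186 in control libraries (SD, n = 3 each). Most of the sum was Igfbp2, at 1979 ± 231 CPM per kilobase in knockout and 3514 ± 173 in control cultures (SD, n = 3 each). The sum therefore does not give the direction of the other binding proteins, and of all 6 genes 4 rose and 2 fell. Igfbp2 made up 63.6% ± 1.94 of the sum in knockout and 78.5% ± 0.617 in control cultures. Igfbp3 came next in both genotypes, with 19.8% ± 1.65 in knockout and 11.5% ± 0.285 in control cultures.

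The shares of Igfbp3, Igfbp4, Igfbp6 and Igfbp7 were higher and those of Igfbp2 and Igfbp5 lower in the knockout mean. Because Igfbp2 made up most of the sum, a lower Igfbp2 level raises the other shares by arithmetic alone. Igfbp7 made up 9.95% ± 0.271 in knockout and 4.68% ± 0.0817 in control cultures. Igfbp5 made up 3.47% ± 0.406 in knockout and 4.14% ± 0.307 in control cultures. Igfbp7 stood above Igfbp5 in every library, by 2.90 ± 0.389 times in knockout and 1.13 ± 0.0665 times in control cultures, so in controls the pair lay close together. With the longest transcript as the length, the control means were 3.47% for Igfbp7 and 3.05% for Igfbp5. Igfbp4 made up 2.57% ± 0.128 in knockout and 0.847% ± 0.00424 in control cultures. Igfbp6 made up 0.621% ± 0.0147 in knockout and 0.311% ± 0.0319 in control cultures. Of the ratios computed, that of Igfbp2 to Igfbp4 differed most: Igfbp2 was 24.8 ± 1.93 times as high as Igfbp4 in knockout and 92.6 ± 0.266 times in control cultures. This ratio sets the largest fall against the largest rise of the binding proteins, so it restates their fold changes.

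**Figure D3:**
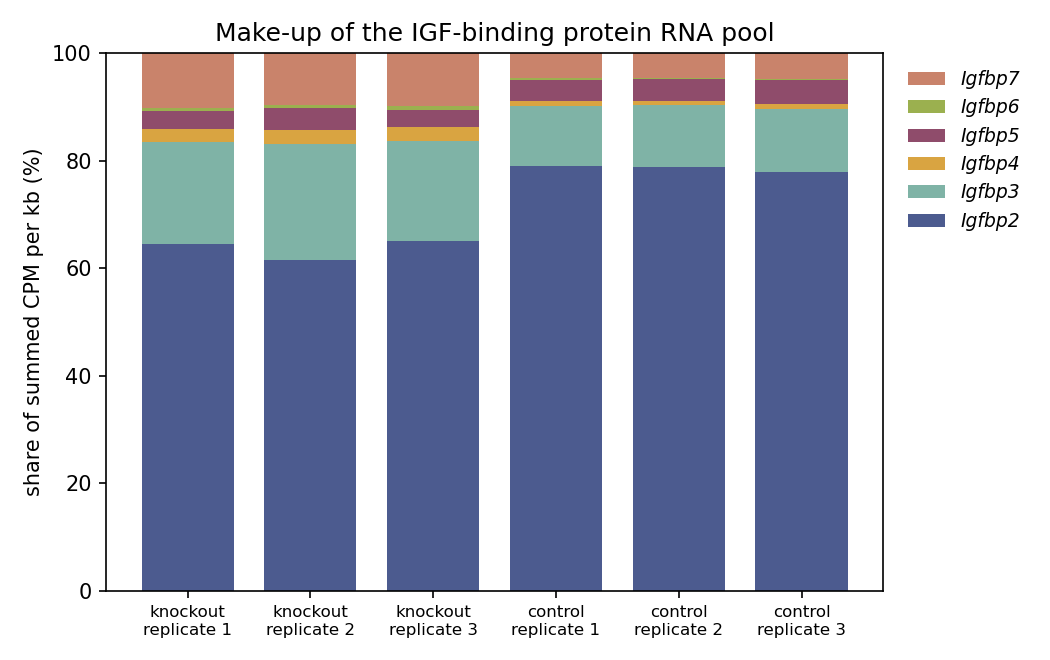
Share of each binding protein gene in the sum of CPM per kilobase over Igfbp2 to Igfbp7, one stacked bar per library, knockout libraries on the left. The Igfbp2 share (bottom, blue) lies at 61.4 to 65.0% in the knockout and 77.8 to 78.9% in the control libraries.

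Per kilobase, and by mean over 3 libraries, the 10 genes stood in 1 order in both genotypes: Igfbp2, Igfbp3, Igfbp7, Igfbp5, Igfbp4, Igf2r, Igfbp6, Igf1r, Igf1 and Igf2. The neighbours Igfbp5 and Igfbp4 lay closer together in the knockout, with 107 ± 2.98 and 79.7 ± 4.07 CPM per kilobase in knockout cultures, against 185 ± 5.73 and 37.9 ± 1.76 in control cultures (SD, n = 3 each). Igf2r and Igfbp6 were neighbours within their spread, at 20.4 ± 0.0972 and 19.3 ± 2.13 CPM per kilobase in knockout cultures and 16.1 ± 1.46 and 14.0 ± 1.95 in control cultures. The signalling receptor Igf1r was at 6.38 ± 0.130 CPM per kilobase in knockout and 7.01 ± 0.435 in control cultures, far below the abundant binding proteins. The ligand Igf1 was at 2.69 ± 0.116 CPM per kilobase in knockout and 2.26 ± 0.0949 in control cultures. The ratio of Igf1r to Igf1 was 2.37 ± 0.150 in knockout and 3.11 ± 0.307 in control cultures (SD, n = 3 each).

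In the wider pathway, 107 of 117 genes of 7 lists were tested; 40 rose and 20 fell, with a median log2 fold change of 0.057, against −0.0018 over all genes tested. With total counts as the only scaling, 35 pathway genes were higher and 27 lower, and 2921 and 4499 of all genes, against 3627 and 3466 with TMM. These counts, and those of each list below, stand beside the 19.6% higher and 18.7% lower of all genes tested. Most of the tested pathway genes have a mean of at least 10 CPM, and 53.6% of all genes at that level were called. The pathway share called was therefore near that of genes at a like level.

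Proteases that cut IGF-binding proteins, with their inhibitors, were mostly higher: of 14 tested, 10 rose and 2 fell (median 0.49). Mmp9, a gelatinase, was at 33.5, 29.4 and 32.8 CPM in knockout and 4.84, 6.31 and 6.09 CPM in control libraries, with a log2 fold change of 2.47 (SE 0.10, edgeR adjusted p = 2.6e-12). Plat, tissue plasminogen activator, was at 254 ± 7.01 CPM in knockout and 151 ± 7.22 CPM in control cultures (log2 fold change 0.75), and Mmp2, the other gelatinase, at 245 ± 2.41 CPM in knockout and 168 ± 5.06 CPM in control cultures (0.55). Htra1, a serine protease that cuts binding proteins, fell and was at 217 ± 1.58 CPM in knockout and 320.1 ± 15.7 CPM in control cultures (−0.56; SD, n = 3 each). Mmp9, Mmp2 and Plat cut many other substrates and are not particular to IGF-binding proteins.

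The proteases dedicated to the IGF system, named after their values were seen, rose together with their inhibitors. Pappa, whose metalloprotease cuts the product of Igfbp4, was at 74.8, 73.8 and 76.4 CPM in knockout and 47.8, 44.6 and 53.1 CPM in control libraries, with a log2 fold change of 0.63 (SE 0.06, edgeR adjusted p = 3.3e-07). Its relative Pappa2, which cuts the products of Igfbp3 and Igfbp5, was at 5.65 ± 1.08 CPM in knockout and 3.07 ± 0.339 CPM in control cultures (log2 fold change 0.88, adjusted p = 0.00055, edgeR). Stc2 and Stc1 encode stanniocalcins, secreted inhibitors of these enzymes. Stc2 was at 10.2 ± 1.05 CPM in knockout and 6.05 ± 0.702 CPM in control cultures (0.75) and Stc1 at 7.31 ± 0.501 CPM in knockout and 5.17 ± 0.872 CPM in control cultures (0.50; SD, n = 3 each). Both rose, so RNA of the proteases and of their inhibitors changed in the same direction as that of Igfbp4. Of the 2 genes whose products Pappa2 cuts, Igfbp3 rose (0.24) and Igfbp5 fell (−0.79), so the substrates did not share 1 direction.

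Of the 12 other IGF family genes, 7 were tested, 3 rose and 1 fell (median 0.057); Ins1, Igfbp1 and Igfl3 had no reads. Insrr, which encodes an orphan relative of the insulin receptor, was low but rose, at 1.83, 1.63 and 2.41 CPM in knockout and 0.370, 0.160 and 0.314 CPM in control libraries, with a log2 fold change of 2.79 (SE 0.36, edgeR adjusted p = 7.1e-06). Igf2bp2 and Igf2bp3, which encode RNA-binding proteins named for binding Igf2 RNA, were at 55.2 ± 3.09 CPM in knockout and 33.9 ± 0.967 CPM in control cultures (log2 fold change 0.70) and at 10.99 ± 0.446 CPM in knockout and 7.63 ± 0.995 CPM in control cultures (0.52; SD, n = 3 each), and both rose. Igfbpl1, which encodes a secreted protein like the binding proteins, fell and was at 6.68 ± 0.971 CPM in knockout and 9.46 ± 0.764 CPM in control cultures (−0.50). Insr, the insulin receptor gene, was at 52.7 ± 4.22 CPM in knockout and 56.6 ± 3.63 CPM in control cultures and did not pass the test (adjusted p = 0.24, edgeR).

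Insulin receptor substrates and adaptors numbered 3 higher and 4 lower of 17 (median 0.039), with 5 higher without control replicate 3. Irs2, a docking protein of the insulin and IGF1 receptors, fell and was at 110.4 ± 5.64 CPM in knockout and 152 ± 8.63 CPM in control cultures (log2 fold change −0.46), and Sh2b1, an adaptor, fell and was at 49.9 ± 0.817 CPM in knockout and 65.1 ± 2.11 CPM in control cultures (−0.38; SD, n = 3 each). The cytokine feedback genes Socs1 and Socs3, which also act on insulin receptor substrates, went opposite ways. Socs1 rose and was at 27.1 ± 2.77 CPM in knockout and 12.1 ± 2.12 CPM in control cultures (1.17) and Socs3 fell and was at 33.2 ± 2.30 CPM in knockout and 45.8 ± 2.44 CPM in control cultures (−0.47).

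The PI3K, AKT and mTOR arm was split evenly, 7 higher and 7 lower of 29 (median −0.021). It was 5 higher and 11 lower under total-count scaling, and 11 higher and 6 lower without control replicate 3. Pik3r1, the main regulatory subunit of PI3K, rose and was at 198, 202 and 197 CPM in knockout and 120.0, 119.6 and 133 CPM in control libraries (log2 fold change 0.68). Pik3cb, a catalytic subunit, fell and was at 42.3, 43.5 and 48.0 CPM in knockout and 76.6, 74.9 and 78.7 CPM in control libraries (−0.78). Rictor, a scaffold of the mTOR complex that phosphorylates AKT, rose and was at 96.3 ± 5.25 CPM in knockout and 71.3 ± 6.98 CPM in control cultures (0.43; SD, n = 3 each).

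FOXO factors and FOXO-responsive genes, which AKT signalling normally holds down, numbered 7 higher and 3 lower of 19 (median 0.0062). Of all genes tested, 19.6% were higher and 18.7% lower, and 53.6% were called among those with a mean of at least 10 CPM. The share of this list called was near the last of these, and FOXO activity was not tested. The number lower was 1 without any 1 library except knockout replicate 3, and 5 under total-count scaling. Sod2, mitochondrial superoxide dismutase and also a gene that inflammatory cytokines induce, rose and was at 392 ± 7.56 CPM in knockout and 227 ± 4.83 CPM in control cultures (log2 fold change 0.79). Fbxo32, a ubiquitin ligase subunit, rose and was at 14.8 ± 1.39 CPM in knockout and 8.06 ± 0.408 CPM in control cultures (0.88), and Bcl2l11, a promoter of apoptosis, rose and was at 51.1 ± 2.58 CPM in knockout and 37.9 ± 2.21 CPM in control cultures (0.43). Txnip, an inhibitor of thioredoxin, fell and was at 92.6 ± 6.11 CPM in knockout and 143 ± 3.37 CPM in control cultures (−0.63; SD, n = 3 each). The FOXO genes themselves, Foxo1, Foxo3, Foxo4 and Foxo6, did not pass the test.

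The mannose 6-phosphate receptor pathway, in which Igf2r works, numbered 7 higher and 3 lower of 16 (median 0.065). Snx2, a sorting nexin of endosomes, rose and was at 89.9 ± 4.86 CPM in knockout and 61.9 ± 1.41 CPM in control cultures (log2 fold change 0.54), and Vps35, the core of the retromer that returns the receptor from endosomes, rose and was at 243 ± 12.6 CPM in knockout and 189 ± 2.90 CPM in control cultures (0.36). Ap1g1, an adaptor of clathrin vesicles, and Gnptab, the enzyme that starts the mannose 6-phosphate tag, rose and were at 104 ± 4.65 CPM in knockout and 84.8 ± 4.59 CPM in control cultures (0.30) and at 52.4 ± 0.703 CPM in knockout and 42.5 ± 3.13 CPM in control cultures (0.30; SD, n = 3 each). The 3 lower genes of this list were Gga1 (−0.30), Ap1s1 (−0.23) and Ap1m1 (−0.16), named after their values were seen.

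Of 9 growth hormone axis genes, which control Igf1 in liver, 5 were tested and 3 rose (median 0.28). Jak2, the kinase of the growth hormone receptor and of several cytokine receptors, was at 211, 230.1 and 221 CPM in knockout and 87.7, 86.4 and 92.0 CPM in control libraries, with a log2 fold change of 1.31 (SE 0.05, edgeR adjusted p = 6.9e-13). Ghr, the receptor gene, rose and was at 65.8 ± 2.86 CPM in knockout and 54.3 ± 0.185 CPM in control cultures (log2 fold change 0.28), and Stat5a, a transcription factor downstream of it, rose and was at 34.8 ± 0.255 CPM in knockout and 28.1 ± 0.606 CPM in control cultures (0.30; SD, n = 3 each). Stat5b and Cish, a target of STAT5 factors, did not pass the test.

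**Figure D4:**
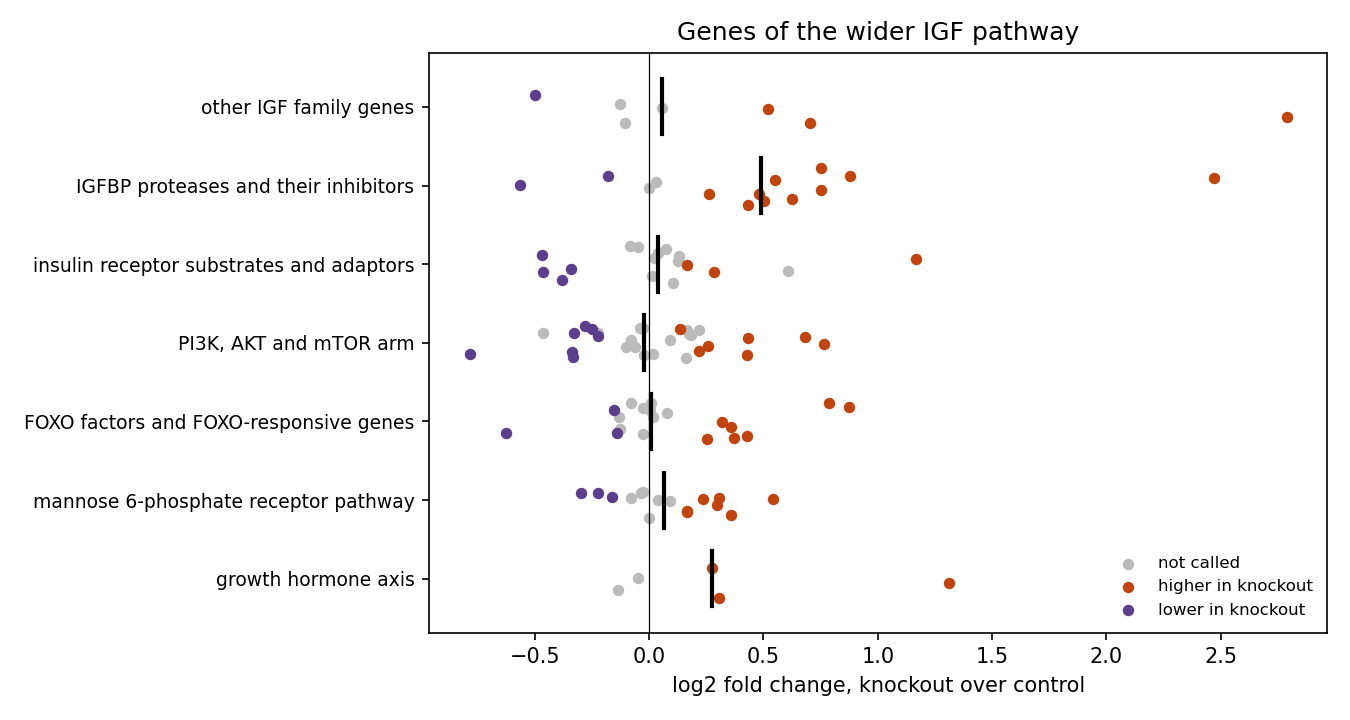
Log2 fold change, knockout over control, of every tested gene of the 7 pathway lists, one row per list, coloured by call (orange higher, purple lower, grey not called); black bars are list medians, and vertical jitter has no meaning. The proteases that cut binding proteins lie mostly right of 0 (median 0.49), while the PI3K, AKT and mTOR arm is spread on both sides (median −0.021).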

How the data were processed

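RNA-seq counts per gene from 3 knockout and 3 control libraries were used. Per the labels and the values, the authors deposited raw whole-number counts, one column per library; the submitters' processing notes name HISAT2 2.2.1 and featureCounts 2.0.6, with no strand setting or handling of shared reads given in the sources used here. The gene annotation used for positions and exon lengths was GENCODE M21 (GRCm38), which holds 54495 of the 54532 identifiers in the table.

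Genes were filtered with filterByExpr (minimum count 10), scaled by TMM and fitted with edgeR 4.0.16 in R 4.3.3 (robust glmQLFit, quasi-likelihood test, Benjamini-Hochberg adjustment over all 18530 genes tested); limma 3.58.1 and DESeq2 1.42.0 served as alternatives. CPM are TMM-scaled, and CPM per kilobase divides them by the length of all annotated exon bases. Replicates of a genotype differed by more than the sampling noise of their counts, so none were merged. The labels do not say that library numbers pair the samples, and the main fit used no pairing. Same-numbered libraries showed little shared deviation (correlations 0.0151, 0.0194 and −0.00821), but with 3 libraries per group this cannot exclude a pairing.

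The members, the pathway and marker lists and the tests were chosen with earlier results of these data known. The genes named were the 10 members, Neo1, and in each pathway list up to 4 called genes with the smallest p; others are said to have been named after their values were seen, and H19, Airn, Polr2b, Igfbp1, Insr, Cish, Stat5b and the FOXO genes were named for position or role with their values known. Promoter windows came from RefSeq (GRCm38.p6). Protein sequences were not used here. Not every gene this rule names is reported here.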

Additional observations from a re-analysis of the deposited data

How the results depend on the processing

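The calls of Igfbp2, Igfbp3, Igfbp4, Igfbp5, Igfbp6, Igfbp7, Igf1 and Igf2r held under RLE, upper-quartile and total-count scaling, DESeq2, limma-voom, other filters, an adjusted p under 0.01 and without any 1 library. Against a fold of 1.5 the genes called numbered 666 higher and 348 lower, the IGF genes 1 higher (Igfbp4) and 2 lower (Igfbp2 and Igfbp5), and the pathway genes 8 higher and 1 lower; Igf1 (0.25), Igf1r (−0.14), Igf2r (0.34), Igfbp3 (0.24), Igfbp6 (0.47) and Igfbp7 (0.56) were then not called. Igf1r (−0.14) was also not called without the robust option or at 0.01. Leaving out 1 library gave 2907 to 3517 genes higher and 2753 to 3431 lower, 6 to 6 and 2 to 3 IGF genes, and 35 to 46 and 16 to 20 pathway genes. The log2 fold changes then ran from 0.22 to 0.28 for Igf1, −0.38 to 0.079 for Igf2, −0.18 to −0.092 for Igf1r, 0.29 to 0.41 for Igf2r, −0.88 to −0.73 for Igfbp2, 0.22 to 0.25 for Igfbp3, 1.03 to 1.11 for Igfbp4, −0.81 to −0.77 for Igfbp5, 0.36 to 0.56 for Igfbp6 and 0.51 to 0.65 for Igfbp7. Igf2 changed sign without knockout replicate 1 (0.079) and control replicate 3 (0.067), and has no value under the 1 CPM filter; the cause was not tested. With the longest transcript as length, shares in knockout and control cultures were 67.8% and 81.6% for Igfbp2, 2.24% and 0.718% for Igfbp4, 2.62% and 3.05% for Igfbp5, 0.468% and 0.229% for Igfbp6 and 7.57% and 3.47% for Igfbp7, and 11% in control cultures for Igfbp3. With the replicate number as a block, 3501 genes were higher and 3383 lower, 6 and 3 of them IGF genes, and 41 and 20 pathway genes. Not every library correlated best with its own number (highest same-number correlation 0.0194). The numbers were not taken as pairs in the main fit, though a pairing is not excluded. Depth limits only Igf2, with 18 to 58 reads.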
